A study of Mus musculus with 6 samples.

Results

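The 10 genes described here encode 3 prostaglandin receptors (Ptger2, Ptger4 and Ptgir), 3 guanylate cyclase genes (Gucy1a1, Gucy1b1 and Gucy2g) and 4 cyclic nucleotide phosphodiesterases (Pde3b, Pde4b, Pde2a and Pde7a), out of 45777 genes listed in the deposited tables. They were selected as members of these families by their measured values, comparing CD4+Lrig1+ with CD4+Lrig1- T cells within each table, so their values are given as a description and without a test. Counts of all transcripts listed under a gene symbol were summed per gene.

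Prostaglandin E2 and prostacyclin are lipid mediators that reach T cells through receptors coupled to the G protein Gs, which drives adenylyl cyclase to make cyclic AMP (cAMP). Guanylate cyclases make the related messenger cyclic GMP (cGMP), in the soluble enzyme after binding of nitric oxide. Phosphodiesterases break down both messengers, and cAMP is known as an intracellular brake on T cell activation and as a signal used by regulatory T cells.

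Both groups were CD4+ T cells sorted from the spleen of 7-week-old female C57BL/6 mice, and they differed in the surface protein Lrig1 that defined the sort gate. Poly(A) RNA was sequenced as stranded libraries. There are 6 samples in the labels (3 in each group), whereas the 2 tables used hold 4 libraries, 1 CD4+Lrig1+ and 1 CD4+Lrig1- library in each, named set 1 and set 2 below. The column names carry no replicate number, and which libraries came from separate mice is not given for them. The study states for its quantitative data in general that experiments or samples were independent biologically, and p-values here measure only the spread between these libraries. Those from a fit with the set as a term leave out the spread between the sets.

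The 4 libraries held 44865070 to 59977951 estimated read counts. Lrig1, the gene of the sorted protein, was listed at 75.4 and 36.7 TMM CPM, the counts scaled to library size by edgeR's TMM method, in the CD4+Lrig1- libraries of sets 1 and 2 and at 221 and 129 in the CD4+Lrig1+ libraries. Foxp3, the transcription factor of regulatory T cells, was at 48.9 and 30.7 against 589 and 615 TMM CPM. The summed level of 6 T cell markers was 3075 to 4900 TMM CPM in all 4 libraries. Libraries resembled each other more within a set than within a group, with Pearson's r across genes of 0.96 between the groups in either set and 0.91 between the sets in either group. Differences between the sets were taken on the log2 scale after adding 0.05 TMM CPM to each value. Of 16123 genes tested, 38.8% differed by more than 1 in CD4+Lrig1- cells and 37.7% in CD4+Lrig1+ cells. None of the 10 genes did, the largest such difference being 0.92 for Pde7a. For Gucy2g in CD4+Lrig1- cells, with 2 and 0 counts, this rests on the added value, without which its difference has no finite size. Ratios of CD4+Lrig1+ over CD4+Lrig1- cells are therefore given within each set.

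Sequences before the transcription start are shown for 4 of the genes whose counts lay on a start with a promoter entry clear of annotated exons. The 4 stretches, from the 3 families, show the DNA next to starts in use. They are the 120 bases upstream of the start in RefSeq, build GRCm38.p6, written 5′ to 3′ along the gene, and capitals mark TGACG, the core of the cAMP response element, or its reverse complement CGTCA.
Ptger2, chr14:44987991-44988110, plus strand: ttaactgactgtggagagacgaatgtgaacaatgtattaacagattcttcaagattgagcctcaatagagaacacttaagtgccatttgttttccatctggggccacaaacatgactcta
Ptger4, chr15:5244188-5244307, minus strand: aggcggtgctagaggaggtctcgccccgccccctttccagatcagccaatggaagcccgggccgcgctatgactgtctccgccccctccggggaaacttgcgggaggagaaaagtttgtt
Gucy1b1, chr3:82074712-82074831, minus strand: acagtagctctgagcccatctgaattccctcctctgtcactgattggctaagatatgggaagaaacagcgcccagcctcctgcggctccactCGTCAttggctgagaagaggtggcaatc
Pde4b, chr4:102569940-102570059, plus strand: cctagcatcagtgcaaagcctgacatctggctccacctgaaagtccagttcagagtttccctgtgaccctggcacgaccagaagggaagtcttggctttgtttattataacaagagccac

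Only the Gucy1b1 stretch of these 4 holds the core, 28 bases before the start. Ptgir, Pde2a and Gucy2g also have such a start in use. Their stretches are not shown and do not hold the core. The table of promoters, each 250 bases before to 50 after a start, has 17 windows for 8 of the 10 genes and none for Pde3b and Pde7a. No Gucy1a1 window lies at the start of variant 1, which held 1204 and 1560 counts in the CD4+Lrig1+ libraries of sets 1 and 2. The full element TGACGTCA, searched on both strands, was in 0 of the 17 windows and in 1.79% of 32851 windows of all genes. The core TGACG, which the full element contains, was in 3 of the 17 windows, those of Gucy1b1, of a Pde2a start and of a Pde4b start, and in 20.8% of all windows. The counts near that Pde4b start were 0 in every library, and those near that Pde2a start were 0 to 84. A match is a description of the letters, not of a binding site.

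The prostaglandin receptors fell into 3 patterns, with Ptger2 far higher in CD4+Lrig1+ cells, Ptger4 moderately higher and Ptgir nearly level. Ptger2 (chr14:44988111-45003820, plus strand, GRCm38) encodes EP2, a Gs-coupled receptor for prostaglandin E2. It was listed at 3.01 and 3.61 TMM CPM in the CD4+Lrig1- libraries of sets 1 and 2 and at 44.4 and 46.3 in the CD4+Lrig1+ libraries. The ratio was 14.8-fold in set 1 and 12.8-fold in set 2, and the group means were 45.3 ± 1.29 against 3.31 ± 0.43 TMM CPM (SD, n = 2). The groups were widely separated, and the counts behind the values were 144 and 195 against 2310 and 2656.

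Ptger4 (chr15:5233399-5244187, minus strand) encodes EP4, the other Gs-coupled receptor for prostaglandin E2. It stood at 60.2 and 56.0 TMM CPM in CD4+Lrig1- cells and at 99.9 and 89.3 in CD4+Lrig1+ cells, a log2 ratio of 0.73 in set 1 and 0.67 in set 2. The groups did not overlap, and the gap between them was larger than the spread within either. Its counts were divided nearly evenly between 2 annotated variants with the same start, with 46.5% to 57.9% on variant 1 in the 4 libraries.

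Ptgir (chr7:16906490-16910905, plus strand) encodes IP, the Gs-coupled prostacyclin receptor. It was at 9.02 and 9.42 TMM CPM in CD4+Lrig1- cells and at 8.60 and 8.29 in CD4+Lrig1+ cells. The values were slightly lower in CD4+Lrig1+ cells in both sets, with log2 ratios of -0.07 and -0.18, and the whole range of the 4 libraries was narrow.

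Per length, in TPM, which divide counts by transcript length, as a share of the 9 prostanoid receptor genes, the make-up of the family differed between the groups. TPM was compared only within a library, since Ptger4 stood at 46.8 and 24.0 TPM in the CD4+Lrig1- libraries of sets 1 and 2 at nearly equal TMM CPM. Tbxa2r, the thromboxane receptor, which couples to other G proteins, held the largest share in CD4+Lrig1- cells, 53.2% in set 1 and 63.7% in set 2, ahead of Ptger4 with 38.5% and 29.3%. In CD4+Lrig1+ cells Ptger4 came first with 46.3% and 40.1%, ahead of Tbxa2r with 29.8% and 36.6%. Ptger2 held 1.71% and 1.68% in CD4+Lrig1- cells and 19.5% and 18.8% in CD4+Lrig1+ cells. Ptgir ranked above Ptger2 in both CD4+Lrig1- libraries and below it in both CD4+Lrig1+ libraries. The ratio of Ptger4 to Ptger2 in TPM was 22.5 and 17.5 in CD4+Lrig1- cells and 2.38 and 2.13 in CD4+Lrig1+ cells, so the 2 receptors for prostaglandin E2 stood much nearer each other in the sorted Lrig1+ cells.

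**Figure D1:**
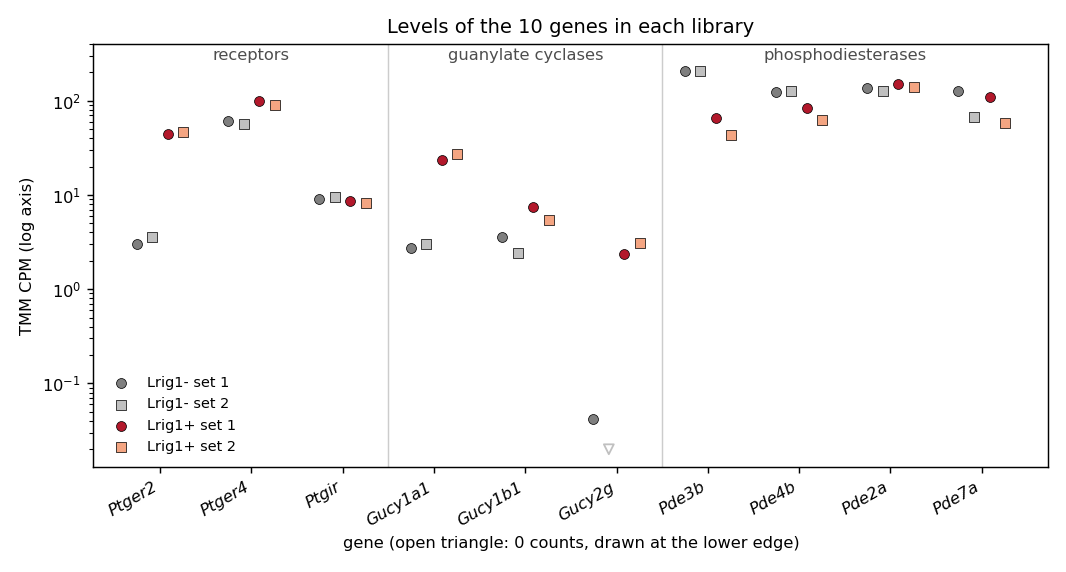
TMM CPM of the 10 genes on a log axis, 1 point per library, with circles for set 1, squares for set 2, grey for CD4+Lrig1- and red for CD4+Lrig1+ libraries, and an open triangle for a count of 0. Ptger2, Gucy1a1 and Gucy2g show the widest gaps with CD4+Lrig1+ cells higher, Pde3b shows the widest gap the other way, and Pde7a differs more between the sets than between the groups.

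The guanylate cyclase genes were all higher in CD4+Lrig1+ cells in both sets. Gucy1a1 (chr3:82092427-82145946, minus strand) encodes the alpha 1 subunit of the soluble, nitric oxide-sensitive enzyme, which works as a dimer of an alpha and a beta subunit. It was listed at 2.74 and 3.0 TMM CPM in CD4+Lrig1- cells and at 23.2 and 27.2 in CD4+Lrig1+ cells, 8.49-fold and 9.06-fold higher. The groups were far apart, at 25.2 ± 2.78 against 2.87 ± 0.19 TMM CPM (SD, n = 2).

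Gucy1b1 (chr3:82032004-82074711, minus strand) encodes the beta 1 partner. It was at 3.57 and 2.43 TMM CPM in CD4+Lrig1- cells and at 7.38 and 5.36 in CD4+Lrig1+ cells, 2.07-fold and 2.21-fold higher. The groups did not overlap, although the 2 sets differed by 1.47-fold in CD4+Lrig1- cells and 1.38-fold in CD4+Lrig1+ cells. The 2 subunit genes are neighbours on the same strand, 17715 bases apart, with 0 genes annotated between them.

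The genes of the other soluble subunits, Gucy1a2 and Gucy1b2, were listed at 0 in all 4 libraries, so Gucy1a1 and Gucy1b1 made up the whole of this pool. The TPM ratio of Gucy1a1 to Gucy1b1 was 0.51 and 0.83 in CD4+Lrig1- cells and 2.17 and 3.49 in CD4+Lrig1+ cells. The beta 1 transcript was the more abundant in both CD4+Lrig1- libraries and the alpha 1 transcript in both CD4+Lrig1+ libraries.

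The transcript to which Gucy1a1 counts were assigned also differed between the groups. Variant 1 and variant 2 start 296 bases apart. Variant 2 held 107 of 131 counts in the CD4+Lrig1- library of set 1 (81.7%, 95% Wilson interval 74.2 to 87.4) and 154 of 162 in that of set 2 (95.1%, 90.6 to 97.5). In CD4+Lrig1+ cells variant 2 held 4 of 1208 counts in set 1 (0.331%, 0.129 to 0.848) and 0 of 1560 in set 2, which allows a share of up to 0.192%, taking 3 counts as the limit for a count of 0. Variant 1 held the remaining counts, 24 and 8 in CD4+Lrig1- cells and 1204 and 1560 in CD4+Lrig1+ cells, and the variant that starts furthest downstream was at 0 in every library. The shares in the groups did not overlap. The division between transcripts that share most of their exons was estimated by the authors' software, and the intervals cover counting error only.

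Gucy2g (chr19:55198099-55241252, minus strand) encodes guanylate cyclase G, a membrane-bound member of the family. It had 2 and 0 counts in the CD4+Lrig1- libraries of sets 1 and 2 and 122 and 179 in the CD4+Lrig1+ libraries, or 0.042 and 0.0 against 2.35 and 3.12 TMM CPM. In set 1 the ratio was 56.2-fold, with an exact counting interval of 15.2 to 469.0, and in set 2 the gene was at least 56.1-fold higher against a floor of 3 counts in the CD4+Lrig1- library. It was thus low in CD4+Lrig1+ cells and near or at the limit of counting in CD4+Lrig1- cells, and it passed the filter on low counts through the CD4+Lrig1+ libraries only.

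None of the Gucy2g counts were assigned to the full-length transcript, which had 0 of 122 and 0 of 179 counts in CD4+Lrig1+ cells, allowing shares of up to 2.46% and 1.68% by the same limit of 3 counts. All counts lay on 4 shorter annotated transcripts whose starts fall within 145 bases of each other. The most upstream of these starts is 23535 bases downstream of the full-length start, in an intron past 12 of the 21 exons. The transcripts to which its counts were assigned in CD4+Lrig1+ cells therefore lack the exons upstream of that intron. As for Gucy1a1, the assignment was estimated by the authors' software, and the limits on the shares cover counting error only.

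**Figure D2:**
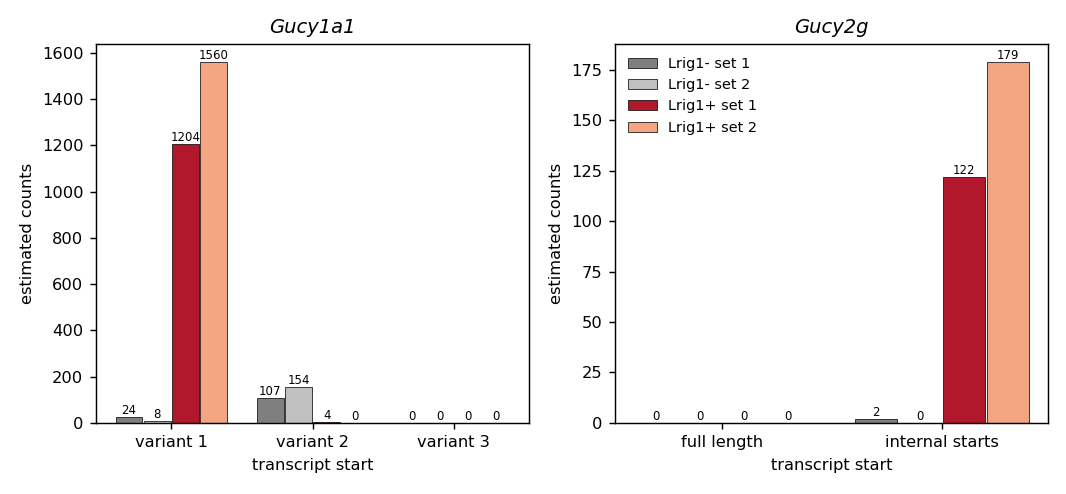
Estimated counts by transcript start for Gucy1a1 (left) and Gucy2g (right), 1 bar per library with its count written above. Gucy1a1 counts lie mostly on variant 2 in the grey CD4+Lrig1- bars and on variant 1 in the red CD4+Lrig1+ bars, and all Gucy2g counts lie on the internal starts.

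The phosphodiesterases divided into a pair lower in CD4+Lrig1+ cells, Pde3b and Pde4b, and a pair that differed little, Pde2a and Pde7a. Pde3b (chr7:114415222-114537938, plus strand) encodes a cAMP phosphodiesterase that cGMP inhibits, and the gene is known for its low level in regulatory T cells. It was at 207 and 205 TMM CPM in CD4+Lrig1- cells and at 64.9 and 42.8 in CD4+Lrig1+ cells, 3.20-fold and 4.79-fold lower. The CD4+Lrig1- libraries were nearly equal, at 206 ± 1.76 TMM CPM, and the CD4+Lrig1+ libraries at 53.8 ± 15.6 (SD, n = 2) lay far below them.

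Pde4b (chr4:102087332-102607262, plus strand) encodes a cAMP-specific phosphodiesterase and is a target of anti-inflammatory inhibitors. It was at 123 and 126 TMM CPM in CD4+Lrig1- cells and at 84.3 and 62.3 in CD4+Lrig1+ cells, a log2 ratio of -0.55 in set 1 and -1.02 in set 2. The groups did not overlap, and the CD4+Lrig1+ libraries differed by 1.35-fold between the sets. Of 7 groups of starts, 1 held 96.9% to 99.9% of its counts in every library, that of variant 2, whose upstream bases are shown above. The annotated span of Pde4b contains 5 other genes, and how reads over them were counted is not given in the sources used here.

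Pde2a (chr7:101421691-101512829, plus strand) encodes a phosphodiesterase of both messengers that cGMP stimulates. It was at 137 and 126 TMM CPM in CD4+Lrig1- cells and at 151 and 139 in CD4+Lrig1+ cells, log2 ratios of 0.14 and 0.13. Both CD4+Lrig1+ values were above both CD4+Lrig1- values, and the 4 lay close together, with ratios between the groups of 1.10-fold in either set and ratios between the sets of 1.09-fold in either group. The leading transcript taken alone gave a log2 fold change of -0.35, since 71.8% of the counts in the CD4+Lrig1+ library of set 2 were assigned to another of its 16 transcripts, against 6.62% to 16.3% in the other 3 libraries. The span of Pde2a contains the gene of the microRNA Mir139, and that of Gucy1a1 contains Mir7010.

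Pde7a (chr3:19223108-19311322, minus strand) encodes a cAMP-specific phosphodiesterase of T cells. It was at 126 and 67.2 TMM CPM in CD4+Lrig1- cells and at 110 and 58.1 in CD4+Lrig1+ cells, log2 ratios of -0.20 and -0.21. The groups overlapped, because set 1 exceeded set 2 by 1.87-fold in CD4+Lrig1- cells and 1.89-fold in CD4+Lrig1+ cells. Leaving out the CD4+Lrig1- library of set 1 or the CD4+Lrig1+ library of set 2 turned its fitted log2 fold change from -0.20 to 0.36 and 0.18.

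As shares of the summed TPM of 18 cyclic nucleotide phosphodiesterase genes outside the photoreceptor family, the 4 enzymes together made up 81.0% and 90.8% in CD4+Lrig1- cells and 77.9% and 89.4% in CD4+Lrig1+ cells. Pde3b came first in both CD4+Lrig1- libraries, with 25.4% and 31.7%, and last of the 4 in CD4+Lrig1+ cells, with 10.8% and 10.7%. Pde2a held 21.6% and 25.2% in CD4+Lrig1- cells and came first in CD4+Lrig1+ cells with 32.3% and 44.9%. Pde4b held 17.6% to 24.5% in the 4 libraries. The share of Pde7a was 15.0% and 9.37% in CD4+Lrig1- cells and 17.2% and 14.1% in CD4+Lrig1+ cells. The summed share of the 4 thus differed more between the sets than between the groups, while the order among them differed between the groups. Pde1b accounted for much of the difference between the sets, with 9.39% and 12.1% in set 1 and 0.70% and 0.69% in set 2.

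**Figure D3:**
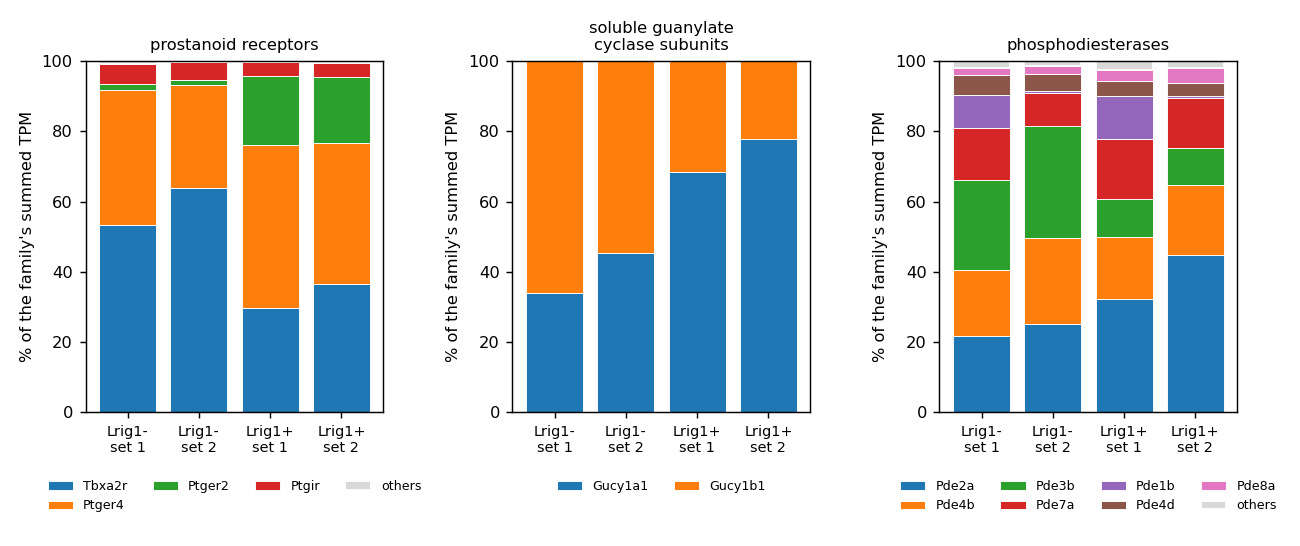
Stacked bars of each gene's share of the summed TPM of its family, in percent, for the 9 prostanoid receptors (left), the 4 soluble guanylate cyclase subunits (middle) and 18 phosphodiesterases (right), 1 bar per library. Ptger2 widens from below 2% to 18.8% or more, Gucy1a1 passes Gucy1b1, and Pde3b narrows to 10.8% or less in CD4+Lrig1+ cells.

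Ordered by TPM within each library, Pde3b was the highest of the 10 genes in both CD4+Lrig1- libraries and rank 6 in both CD4+Lrig1+ libraries, where Pde2a ranked 1 and Ptger4 ranked 2. Ptger2 ranked 8 and 7 in CD4+Lrig1- cells and 5 and 4 in CD4+Lrig1+ cells. Neighbours whose order changed between the sets were Ptger4 with Pde7a and Ptger2 with Gucy1b1 in CD4+Lrig1- cells, and Ptger2 with Pde7a in CD4+Lrig1+ cells. Gucy2g was rank 10 in all 4 libraries.

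All 10 genes passed the filter on low counts. Their log2 ratio was above 0 in both sets for 6 and below 0 in both sets for 4, where 35.9% and 41.3% of the 16123 genes tested did so. It was above 1 in both sets for Ptger2, Gucy1a1, Gucy1b1 and Gucy2g, 4 genes, and below -1 in both for Pde3b alone. The corresponding shares of all genes tested were 7.37% and 3.01%. For 6 of the 10 genes the CD4+Lrig1+ values were both higher than either CD4+Lrig1- value, and for 3 both were lower, against 14.3% and 11.8% of all genes tested. These counts describe genes chosen on the same values, so nothing is read from them against the background. The median log2 ratio of the 10 was 0.44 in set 1 and 0.40 in set 2, also with Gucy2g at its bound, against 0.01 and -0.06 over all genes tested.

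**Figure D4:**
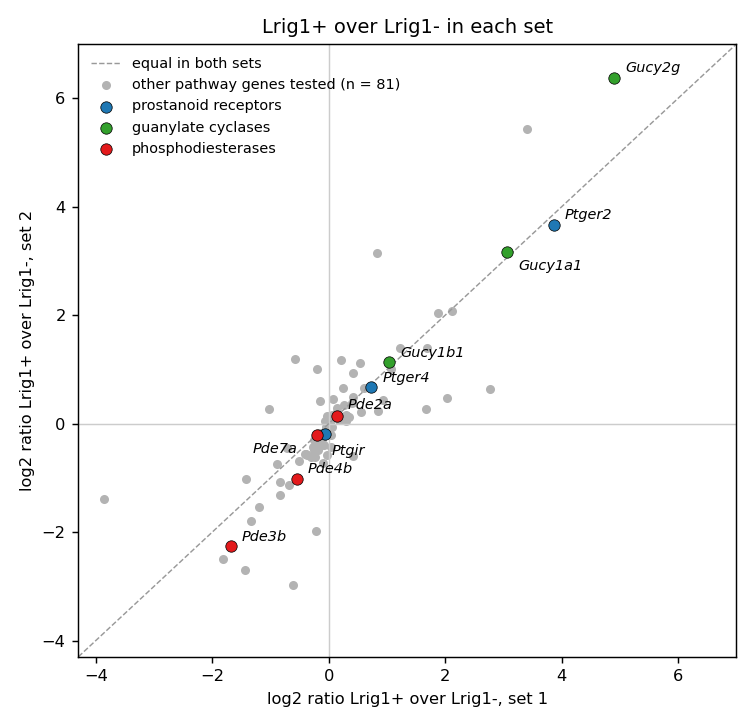
Log2 ratio between the groups, CD4+Lrig1+ divided by CD4+Lrig1-, in set 1 (horizontal) and set 2 (vertical) for the 10 genes, coloured by family and named, and for 81 other genes of the pathway in grey, with the dashed line marking equal ratios. Most of the 10 lie near the line, with Gucy2g, whose ratio rests on 2 and 0 counts in CD4+Lrig1- cells, and Pde3b and Pde4b off it.

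In RNA from sorted bulk cells, a higher share of cells that express a gene and more RNA per cell cannot be told apart, for these genes as for the markers. The 6 regulatory T cell markers, among them Il2ra and Ctla4, summed to 227 and 149 TMM CPM in CD4+Lrig1- cells and to 2149 and 1782 in CD4+Lrig1+ cells, with 6 of 6 detected in every library. Their part in the values of the 10 genes was not tested. The 8 B cell markers summed to 67.1 and 681 against 87.4 and 352 TMM CPM, higher in set 2 than in set 1 in both groups. Soluble guanylate cyclase and several phosphodiesterases are also known from platelets and smooth muscle. Of 8 platelet markers, Ppbp, Gp9 and Gp6 were at 0 in all 4 libraries, Pf4 at 0 in 3 and at 0.087 TMM CPM in the CD4+Lrig1+ library of set 2. The platelet sum was 263 and 238 against 101 and 66.2 TMM CPM, of which Itgb3 gave 259.7 and 238 against 98.3 and 65.8. Of 8 stromal and smooth muscle markers, Pdgfra, Col3a1, Dcn and Myh11 were at 0 throughout, and the sum was 0.31 and 1.19 against 2.31 and 3.05 TMM CPM, higher in CD4+Lrig1+ cells in both sets. The part of these cell types in the values of Gucy1a1 and Gucy1b1 was not tested. Of the 8 endothelial markers Emcn was at 0 throughout, and the sum was 210 and 217 against 172 and 150. Cdh5 gave only 1.57 and 2.63 against 0.37 and 0.40 TMM CPM of that sum, and the other endothelial markers are not given singly here. The 8 monocyte or macrophage markers summed to 61.3 and 250 against 50.7 and 214 TMM CPM, the 6 NK cell markers to 29.0 and 71.5 against 31.6 and 60.3, and the 6 plasmacytoid dendritic cell markers to 147 and 218 against 136 and 128. The 6 erythroid markers reached 9.34 and 96.1 against 9.27 and 84.6, the 5 mast cell or basophil markers at most 1.07, and the 2 CD8 T cell markers 19.5 and 97.3 against 14.1 and 51.6.

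The other genes of the 2 messenger pathways, from synthesis of prostanoids to the cAMP-responsive transcription factors, were tested across all genes, since they did not choose the 10. The list has 122 symbols, of which Ptgr3 is a newer name of Zadh2, and the 121 genes were in the tables, where 81 passed the filter on low counts. In edgeR's quasi-likelihood test without a term for the set, 0 of the 81 were called at an adjusted p below 0.05, where 0.0% of all 16123 genes were with 0.562 as the lowest adjusted p of any gene. Before adjustment, 2 of the 81 were higher and 4 lower at p under 0.05, where 649 and 215 of all 16123 genes were. The DESeq2 Wald test, edgeR's exact test and limma on log2(FPKM + 1) also called 0 of them. Over all genes, 275 of 22988 were called higher and 43 lower by DESeq2, 196 and 17 of 16123 by edgeR's exact test, and 0 by limma. A comparison of 2 libraries with 2 allows no permutation p below 0.333. With the set as a term, a fit with 1 residual degree of freedom, 9 of the 81 were called higher and 19 lower in CD4+Lrig1+ cells, where 14.5% of all genes were called higher and 12.8% lower. The share called higher was near the background and the share called lower above it. The list was chosen with earlier results of these data known, so nothing is read from these shares against the background. The median log2 ratio of the 81 was -0.03 in set 1 and -0.05 in set 2, close to those of all genes. In the following, a call is one of the fit with the set as a term, and no call held without it. Ptgs2, Vipr2 and Gucy2e, 2 called higher and 1 lower, reached the cutoff of the filter in both libraries of their higher group only, so that a difference was built in and no p is given for them.

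Among prostanoid synthesis genes, 1 of 8 tested was called higher and 1 lower. Ptgs1, the constitutive cyclooxygenase, was at 0.56 and 2.31 TMM CPM in CD4+Lrig1- cells and at 1.37 and 6.11 in CD4+Lrig1+ cells (edgeR with the set term, adjusted p = 0.00933). Ptgs2, the inducible cyclooxygenase, below the mean level of 1 set for naming but the other gene called, was at 2.46 and 0.43 against 0.13 and 0.14 TMM CPM. Both sit at low levels, and the 2 isoenzymes lay in opposite directions. Ptges3, the most abundant gene of the group, Hpgds and Tbxas1 were not called, with Ptges3 at log2 ratios of -0.06 and 0.04.

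Of 5 genes of prostanoid breakdown and uptake tested, Zadh2, a prostaglandin reductase, was called lower, at 42.8 and 57.3 against 30.2 and 35.7 TMM CPM (edgeR with the set term, adjusted p = 0.00275). Hpgd, the enzyme that oxidizes prostaglandin E2, was at 0.86 and 5.0 against 1.02 and 7.91 TMM CPM and was not called. Of the prostanoid receptors outside the 10, 2 of 6 were tested and Tbxa2r was called lower, at 46.6 and 68.5 against 36.0 and 46.0 TMM CPM (edgeR with the set term, adjusted p = 0.00681). Ptgdr and Ptgfr were at 0 in all libraries.

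The other Gs-coupled receptors were listed with the accessory proteins Ramp1 and Ramp3. These genes differed among themselves, with 2 of 9 tested called higher and 4 lower. Adora2a, an adenosine receptor that raises cAMP in T cells, was at 32.2 and 34.0 TMM CPM in CD4+Lrig1- cells and at 67.8 and 68.3 in CD4+Lrig1+ cells. Its log2 fold change was 1.04 with SE 0.078 (edgeR with the set term, adjusted p = 0.000148), the same direction as Ptger2 and Ptger4. Vipr1, a receptor for vasoactive intestinal peptide, was at 263 and 169 against 74.5 and 29.9 TMM CPM. Its log2 fold change was -2.15 with SE 0.189 (edgeR with the set term, adjusted p = 0.00344). Receptors that share Gs coupling thus lay on either side of 0, and the lower group held Vipr1, the most abundant of them. Calcrl and the accessory protein Ramp3 were also called lower, and Vipr2 was the other gene called higher.

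None of 4 G protein genes tested was called in either fit, and Gnas, which encodes Gs itself, was at log2 ratios of 0.29 and 0.06. Of 5 adenylyl cyclases tested, 2 were called lower. Adcy6 was at 154 and 38.2 against 67.5 and 13.2 TMM CPM (edgeR with the set term, adjusted p = 0.000145), and Adcy7, the most abundant, at 594 and 176 against 494 and 131 (adjusted p = 0.0206 in the same edgeR fit). Both differed more between the sets than between the groups. Of 12 other guanylate cyclase and nitric oxide synthase genes, 7 were at 0 in all libraries and 2 were tested. Gucy2e, a membrane-bound cyclase, had 11 and 0 counts in CD4+Lrig1- cells and 145 and 92 in CD4+Lrig1+ cells, 12.1-fold higher in set 1, counting interval 6.59 to 24.9, and at least 28.8-fold higher in set 2 against 3 counts.

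Of 12 other phosphodiesterases tested, Pde4d alone was called, lower, at 119 and 78.7 against 66.7 and 37.5 TMM CPM (edgeR with the set term, adjusted p = 0.000279). It is a cAMP-specific enzyme of the same subfamily as Pde4b. Pde4a and Pde4c, the other members of that subfamily, were at 1.44 to 3.29 TMM CPM in set 1 and 0.70 to 2.31 in set 2 and were not called. In the protein kinase A group, 1 of 9 tested was called higher and 2 lower. Prkar1b, a regulatory subunit, was at 0.29 and 0.59 against 1.17 and 2.56 TMM CPM, Prkx, a related kinase, at 79.1 and 93.2 against 60.0 and 63.5, and Pkib, an inhibitor of the kinase, at 1.5 and 3.76 against 0.54 and 1.83. Prkar1a, the most abundant subunit, was not called.

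Among the remaining effectors, Rapgef4, which encodes the cAMP sensor EPAC2, and Cnga1, a cyclic nucleotide-gated channel subunit, were called lower out of 7 tested. Rapgef4 was at 91.9 and 24.7 against 36.3 and 7.09 TMM CPM (edgeR with the set term, adjusted p = 0.000246), and Cnga1 at 10.8 and 15.2 against 3.98 and 2.3 (adjusted p = 0.0132 in the same edgeR fit). Vasp, a kinase substrate and the most abundant gene of the group, was not called. Of 10 anchoring proteins tested, 3 were called higher, among them Akap1 and Akap7, and 3 lower. Of the 8 CREB family and coactivator genes, Crem, a cAMP-induced transcription factor, was called higher, at 10.2 and 12.6 against 13.5 and 17.7 TMM CPM, a log2 fold change of 0.45 (edgeR with the set term, adjusted p = 0.021). The coactivators Crebbp and Ep300 were called lower, with log2 fold changes of -0.46 and -0.27, and each stood several-fold higher in set 1 than in set 2.

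**Figure D5:**
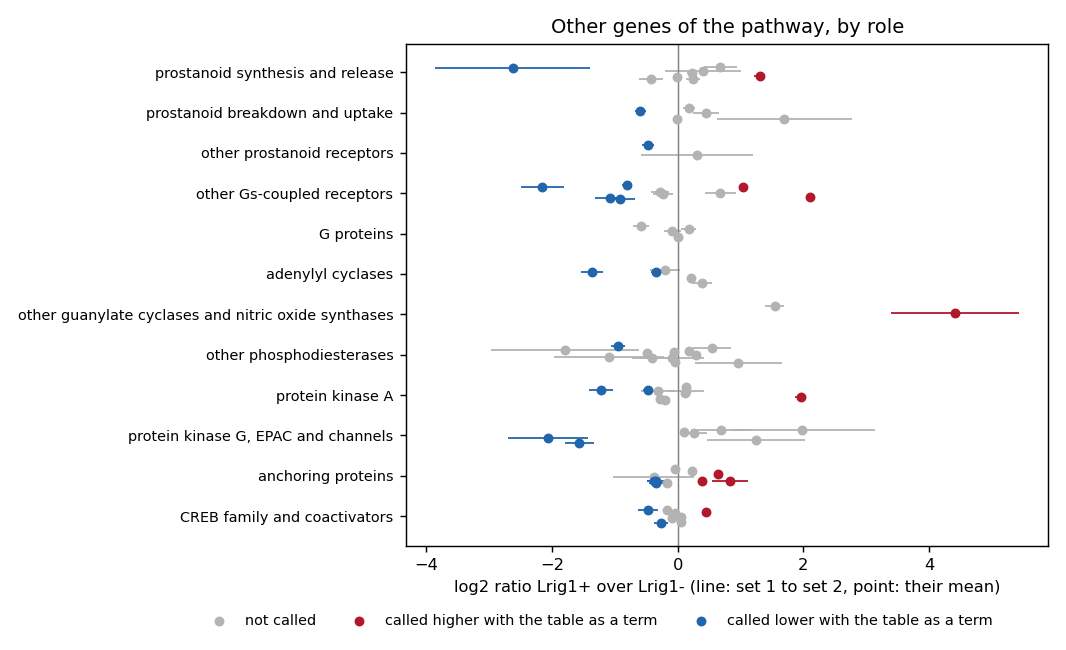
Log2 ratio between the groups, CD4+Lrig1+ divided by CD4+Lrig1-, for 81 tested genes of the pathway other than the 10, grouped by role, with a line from the set 1 to the set 2 ratio and a point at their mean. Red and blue mark the 9 genes called higher and the 19 called lower when the set was a term in the fit, and grey marks genes not called.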

How the data were processed

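CD4+Lrig1+ and CD4+Lrig1- T cell RNA was sequenced as bulk libraries. Reads were trimmed, mapped and assembled by the authors with Trimmomatic 0.38, HISAT2 2.1.0 and StringTie 2.1.3b on GRCm38, per the labels. The deposited tables list, per transcript, the authors' estimated counts (whole numbers), FPKM and TPM for 1 library of each group per table. A further table was not used, because the names of its 6 per-sample columns give no Lrig1 group. Group assignment came from column names.

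Estimated counts were summed per gene symbol over 129299 transcripts, filtered with filterByExpr (16123 genes kept), TMM-normalized and fitted with edgeR 4.0.16 in R 4.3.3 (quasi-likelihood, robust, Benjamini-Hochberg, adjusted p below 0.05). TMM CPM are CPM relative to the TMM-scaled library size. Log2 ratios used a prior count of 2. DESeq2 1.42.0 and limma 3.58.1 gave alternatives. The set was not a term in the fit taken as primary, and the fit with it, with 1 residual degree of freedom, is named where used. Deviations of the 2 groups between the sets correlated (r = 0.891 over 16123 genes, which are not independent). FPKM served only as an alternative scale, and TPM for shares within a family. The share intervals are 95% Wilson intervals, and a share of 0 is limited by 3 counts of the gene's total.

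The 10 genes, the pathway list and the marker lists were chosen with earlier results of these data known. Genes named from the pathway list were, per role, up to 3 with the largest mean absolute log2 ratio at a mean of at least 1 TMM CPM, and the most abundant. Ptgs2, Vipr2, Calcrl, Ramp3, Pde1b and genes at 0 were named outside this rule, after their values were seen. The values of 1 gene that the rule names are not reported here.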

Additional observations from a re-analysis of the deposited data

How the results depend on the processing

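With the set that holds each library as a block in edgeR's quasi-likelihood test, 9 of the other pathway genes were called higher and 19 lower, against 0 and 0 without it. All other alternatives run, including each library left out in turn (range 0 to 0 in either direction), DESeq2 size factors, the DESeq2 Wald test, edgeR's exact test, no filter and limma on log2(FPKM + 1), gave 0 and 0. Over all genes those fits called 275 higher and 43 lower in the Wald test, 196 and 17 in the exact test, and 0 in the others with all libraries. Leaving out a CD4+Lrig1- library gave 58 and 1 calls (set 1) or 1 and 1 (set 2), and leaving out a CD4+Lrig1+ library gave 0 and 0 (set 1) or 34 and 0 (set 2). With a library left out, 1 group holds a lone library, assumed to vary like the other group. The counts of 6 genes above 0 and 4 below 0 in both sets, of the 10, were the same numbers under library totals, DESeq2 size factors, FPKM and a prior count of 0.5. Of the log2 fold changes of the 10 genes, that of Pde2a became -0.35 with the leading transcript alone, from 0.14, while that of Gucy1a1 moved from 3.13 to 6.28 and that of Gucy2g from 6.92 to 8.67. Leaving out a library gave -0.71 to 0.36 for Pde7a, a change of sign, and kept the sign of the other 9. The fold change of Gucy2g, 6.92 from 2 and 0 counts in CD4+Lrig1- cells, ran from 5.96 to 10.2 with a library left out and is no bound. On log2(FPKM + 1) it was 1.04, that of Gucy1a1 was 1.96 against 3.13, that of Gucy1b1 0.62 against 1.09 and that of Ptger2 2.84 against 3.77, since the pseudocount shrinks low genes. Depth limits Gucy2g and Gucy2e, which have 0 counts in a CD4+Lrig1- library.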
